A study of Oryza sativa Japonica Group with 6 samples.

Results

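Alternative 5' splice sites are pairs of sites at the end of the same exon that are joined to the same next exon, so that the exon ends early in one transcript and late in the other. The deposited splicing tables of rice grain hold 1349 such events, out of 12313 events of 5 kinds, and all of them are described here. They lie in 1104 host genes, of which 938 have 1 event, 166 have more, and the richest has 9. By locus name 1322 events lie in annotated loci, 23 lie in genes assembled from the reads, and 4 lie on unplaced sequence. The plus strand carries 673 events and the minus strand 676.

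Grains of the rice line Zhenong 34, labelled wild type and control, were compared with grains of a mutant named sgs3, which carries the treatment label EMS. This stands for ethyl methanesulfonate, a mutagen that mostly changes single bases. The labels give neither the age of the grains, nor the mutated gene, nor whether each library is a plant of its own. P-values therefore refer to differences among libraries, which may be technical. The splicing table holds 3 sgs3 libraries and 2 wild-type libraries, whose replicate numbers are not recorded, and they are named here by the order in which the table lists them.

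An intron begins at its 5' splice site, which is first read by base pairing with the U1 small nuclear RNA of the U1 snRNP, a particle of RNA and protein, and later checked by the U6 small nuclear RNA. Where an exon end holds more than one usable site, SR proteins and U1-associated proteins help to set which is taken. A shift of the site by a multiple of 3 bases adds or removes whole codons when it lies in coding sequence, and any other shift changes the reading frame behind it. SGS3, after which the mutant is named, is known in plants for its work with the polymerase RDR6 in making double-stranded RNA for small RNAs.

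For each event the upstream site makes the short form of the exon and the downstream site the long form. The inclusion level is the share of the long form, computed from junction reads divided by the length of each form. A level of 1 therefore means that no short-form read was counted, and a level of 0 that no long-form read was. Long-form reads can also run past the upstream site unspliced, and how many do was not tested. In LOC_Os01g39060 the site at 21958585 had 20, 34, 31, 77 and 77 long-form reads when set against the site at 21958510. Set against the site at 21958538 it had 12, 17, 19, 46 and 46. Statements below on use of the downstream site or of both sites therefore refer to the long form. Junction reads over all events summed to 379245, 405285 and 318107 in the sgs3 libraries and to 309556 and 277508 in the wild-type libraries. Of these reads 50.4% to 73.9% per library fell on the 2 most-read events, in glutelin type-A 1 and in LOC_Os12g16900. The genotypes were compared in the 532 events, in 470 host genes, whose junction reads reached 20 in each library, which is 39.4% of all. The other 817 were too thin in at least 1 library.

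The tissue label was checked on marker genes. Summed TPM (transcripts per 1000000 transcripts) of 51 endosperm genes was 43312, 303299 and 233971 in the 3 wild-type libraries of the gene table, and 426024, 367883 and 377769 in the sgs3 libraries. For 22 embryo and aleurone genes the sum was 1404 to 6114 TPM in wild type and 3580 to 4642 TPM in sgs3. For 78 green-tissue genes it was 61.5 to 674 TPM and 48.4 to 723 TPM. All libraries thus held grain transcripts, and wild-type replicate 1 stood apart with its low endosperm sum. Whether that library is among the 2 in the splicing table is not recorded. In wild-type replicates 1, 2 and 3 glutelin type-A 1 was at 3437, 19310.5 and 12504 TPM. LOC_Os03g22460 was at 2049, 441 and 691 TPM. Junction reads of their events were 121167 and 2769 in the first wild-type splicing library, and 90301 and 4027 in the second. In these loci both were thus like replicates 2 and 3 and unlike replicate 1. Host TPM below is over all 3 replicates. The part of tissue make-up in the results below was not tested. In such bulk samples fewer cells of a type and less RNA per cell cannot be told apart. The locus annotated as an SGS3 homolog with the higher level, LOC_Os12g09580, was at 94.9, 40.9 and 53.5 TPM in wild type and at 8.73, 11.6 and 29.2 TPM in sgs3. In limma the log2 difference was -1.96 (adjusted p of 0.0436), and -0.91 after scaling between libraries (adjusted p of 0.0978). The locus holds no alternative 5' splice site event.

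The sites of an event were mostly close together, and 4 bases was the most common distance. The distance had quartiles of 10, 30 and 135 bases and ran from 1 to 2433 bases. There were 108 events with sites 4 bases apart (8.01%) and 79 with sites 5 bases apart (5.86%). Only 35 events lay 3 bases apart and 41 lay 6 bases apart. Within 12 bases lay 402 events, or 29.8%. A separation of 4 bases between 5' splice sites is well known in plants and animals, and the consensus for the start of an intron carries a second GT 4 bases on. The distance did not favour whole codons. It was a multiple of 3 in 433 of 1349 events (32.1%), left a remainder of 1 in 477 and a remainder of 2 in 439. Alternative 3' splice sites, where the start of the exon shifts instead, are set beside them for comparison. Of 2494 such events 395 lay 3 bases apart (15.8%), 133 lay 4 bases apart, the median distance was 14 bases and 1018 (40.8%) were multiples of 3.

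**Figure D1:**
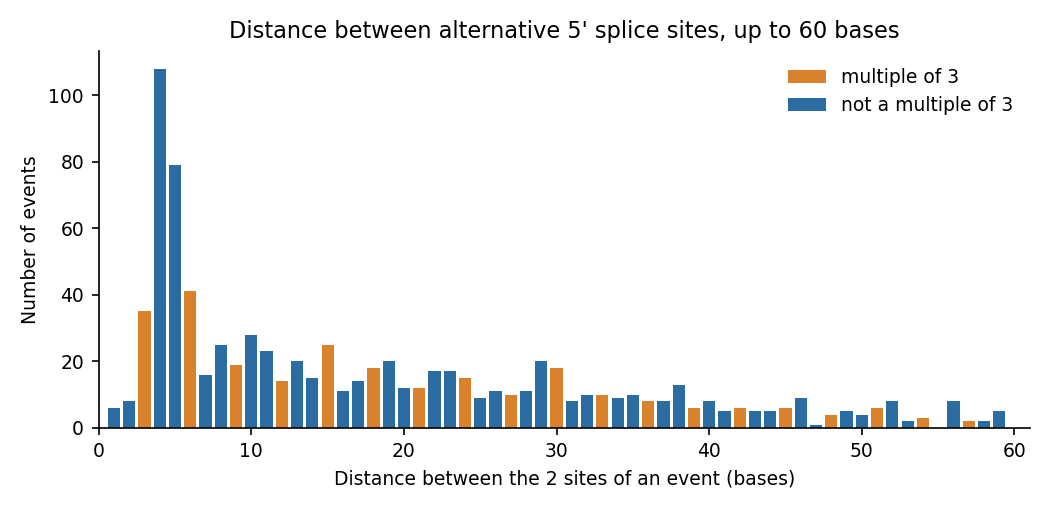
Number of alternative 5' splice site events (vertical axis) at each distance between the upstream and the downstream site from 1 to 60 bases (horizontal axis), with multiples of 3 in orange. The peak stands at 4 bases with 108 events, followed by 5 bases with 79, while the multiples 3 and 6 reach 35 and 41.

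Among the 532 tested events the preference for a site was often strong, and it went to either side. Averaged over the 5 libraries, 170 events (32.0%) took the downstream site at a level above 0.9 and 151 (28.4%) took it at a level below 0.1. The other 211 (39.7%) used both sites at levels between these. Tested events had a median of 401 junction reads over the 5 libraries, with a lowest of 124 and a highest of 714388. The tested events were in frame somewhat more often than all events, at 200 of 532 (37.6%), and their distance had quartiles of 11, 35 and 183 bases.

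The median level differed between classes of distance. Sites 4 bases apart leaned to the upstream one, with a median level of 0.251 in 35 tested events, of which 13 were below 0.1 and 6 above 0.9. Sites 5 bases apart had a median of 0.594 in 30 events. Those 1 to 3 bases apart had a median of 0.843 in 20 events. From 6 to 12 bases it was 0.381, from 13 to 30 bases 0.481 and from 31 to 100 bases 0.353. Over 100 and up to 300 bases apart it was 0.889 and beyond that 0.557. The share of events that used both sites was 35.0% at 1 to 3 bases, 45.7% at 4 bases, 53.3% at 5 bases and 47.8% at 31 to 100 bases, and was 25.3% over 100 and up to 300 bases apart and 26.3% beyond. That share was lowest in the classes beyond 100 bases, and it was also low at 1 to 3 bases, with 7 of 20 events. The inner quartiles of the level reached from 0.0357 to 0.989 over 100 and up to 300 bases apart, so the class medians stand for events at both ends of the scale. These values describe events of unequal depth and were not tested against each other.

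**Figure D2:**
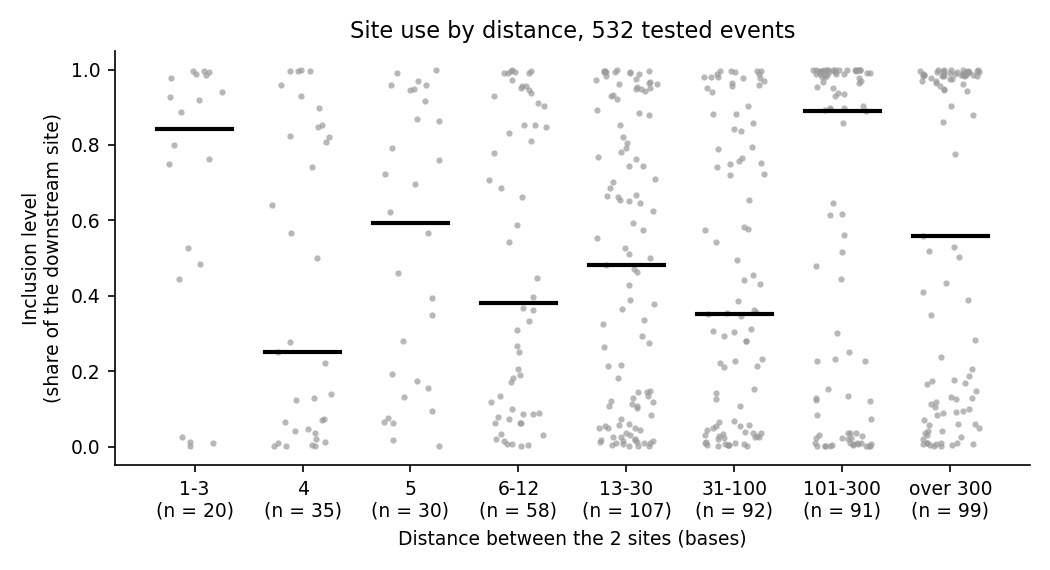
Mean inclusion level over the 5 libraries (vertical axis, share of the long form) of each tested event, in classes of the distance between its sites (horizontal axis, bases). Points are events, spread sideways for legibility, and the black bar is the class median, which is 0.251 at 4 bases and 0.889 for those over 100 and up to 300 bases apart. Beyond 100 bases most points lie near 0 or 1.

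By reading frame, events at a multiple of 3 had a median level of 0.528 (200 events) and the others 0.488 (332 events). Both sites were used in 38.0% and 40.7% of them. Within 12 bases the medians lay further apart, at 0.685 for 45 in-frame events and 0.395 for 98 others. By the length of the shorter of the introns, the median level was 0.621 for introns of up to 100 bases (143 events), 0.555 for those over 100 and up to 200 bases (116 events), 0.290 for those over 200 and up to 500 bases (112 events) and 0.503 for longer ones (161 events). It did not follow intron length in one direction.

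The site that the locus transcripts already carried had the higher median share. Events of which both forms belong to annotated locus transcripts numbered 506, of which 234 were tested, with a median level of 0.472. Where only the short form was in a locus transcript and the long form came from the assembly of reads, the median level was 0.219 in 150 tested events. Where only the long form was in a locus transcript, it was 0.880 in 82 events. Exceptions existed on both sides. Of the 150 events, 43 took the assembled downstream site at a level above 0.9, and of the 82, 8 took the assembled upstream site so fully that the level was below 0.1. Events with both forms known from the assembly alone used both sites most often, in 79.6% of 49.

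The most-read events show how strong a preference can be. Glutelin type-A 1 (LOC_Os02g25640), a major storage protein of the rice seed, gave 714388 junction reads, the most of any event. Its sites lie 616 bases apart on chromosome 2, minus strand, with the exon ending at 14992922 or 14992306. The long form had 180723, 188690 and 133476 reads in the sgs3 libraries and 121167 and 90301 in wild type. The short form had 31 reads in the second sgs3 library and 0 in the other 4, which allows a share of short-form reads of up to 0.0033% in the thinnest of them. Such limits cover counting error only. Both forms are annotated, so an annotated site was practically silent here in both genotypes.

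The starch branching enzyme of LOC_Os06g51084, which makes the branch points of amylopectin, had 53162 reads over sites 165 bases apart. Its inclusion level was 0.977, 0.980 and 0.972 in sgs3 and 0.988 and 0.982 in wild type. The groups did not overlap, yet the difference was -0.009 ± 0.004 (SE), with an adjusted p of 0.382. Oryzasin-1 (LOC_Os01g47410), an aspartic proteinase of rice seeds, used both of its annotated sites, 59 bases apart. Its level was 0.295, 0.279 and 0.310 in sgs3 and 0.308 and 0.329 in wild type, from 21331 reads, and the groups overlap, with an adjusted p of 0.645.

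Only traces of the downstream site were seen in LOC_Os03g22460, a locus with no description. Its 10203 reads held 9 of the long form, 4 in the third sgs3 library and 5 in the second wild-type library. A pair of events in LOC_Os12g16900 on chromosome 12, annotated as a retrovirus-related Pol polyprotein, shares the same 5' sites at 9689271 and 9689307, 36 bases apart. Both join exons over 44500 bases away, and the next exon starts at 9733808 in one event and at 9733883 in the other. Toward the nearer exon the downstream site had a level of 0.803, 0.623 and 0.548 in sgs3 and 0.797 and 0.847 in wild type. Toward the farther one it had 0.036, 0.015 and 0.033 in sgs3 and 0.032 and 0.030 in wild type. By level, the long form was thus the larger share toward the nearer exon and the smaller one toward the farther, in all 5 libraries. In the third sgs3 library the long form had 2996 reads in both events. Reads that run across the 36 bases unspliced are tied to neither exon. How far the choice of site went with the exon it was joined to was therefore not tested. Neither event was called (adjusted p of 0.168 and 0.783). For the nearer exon the difference of -0.164 became -0.236 without the first sgs3 library, with an adjusted p of 2.49e-11 that would make a call, and -0.109 without the third (adjusted p of 0.408). Whether reads were shared between near-identical copies across so long an intron was not tested.

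Sites 4 bases apart are represented by the 3 tested events with the most reads. Ubiquitin-conjugating enzyme E2 28 (LOC_Os04g57220), which hands ubiquitin on to target proteins, used both. Its level was 0.848, 0.852 and 0.851 in sgs3 and 0.828 and 0.853 in wild type. The 5 libraries were nearly level, with an adjusted p of 0.806. Enolase (LOC_Os10g08550), an enzyme of glycolysis, took the upstream site in all but 2 of 4941 reads. LOC_Os04g10240, with no description, took it in all but 1 of 2004 reads. In both loci the 2 sites are annotated, and the genotypes could not be told apart at this depth, with an adjusted p of 0.881 for enolase and 0.793 for the other.

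Between the genotypes 8 of the 532 tested events were called. The median level per library was 0.484, 0.488 and 0.466 in sgs3 and 0.533 and 0.505 in wild type. The difference between group means was lower in sgs3 in 320 tested events and higher in 212, with a median of -0.0064 and a median size of 0.0237. The median range over the 3 sgs3 libraries was 0.0520 and the median gap between the wild-type libraries 0.0302. A difference between means tends to be smaller than a range of single libraries, so these values do not show whether the genotypes differ. Groups did not overlap in 93 of 532 events (17.5%), 68 of them lower and 25 higher in sgs3. With 3 libraries against 2 such separation is frequent even without a difference between genotypes, so alone it does not show one. In 67 events the means differed by at least 0.1, and in 38 of these (7.14% of the tested events) the groups also did not overlap, 28 lower and 10 higher. A call needed a difference of at least 0.1 together with an adjusted p under 0.05 in a quasi-binomial model of the reads, adjusted over all kinds of event. Called were 8 of 532 events (1.5%), 6 lower in sgs3 (1.13%) and 2 higher (0.376%). Over all 5 kinds 40 of 5471 tested events were called (0.731%), with 27 lower (0.494%) and 13 higher (0.238%). An unadjusted p under 0.05 was found in 63 events, 46 lower and 17 higher. With limma on the log2 ratio of reads in place of the quasi-binomial model, 0 events were called and 47 had an unadjusted p under 0.05. Without the second wild-type library 4 events were called, 3 of them among the 8.

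**Figure D3:**
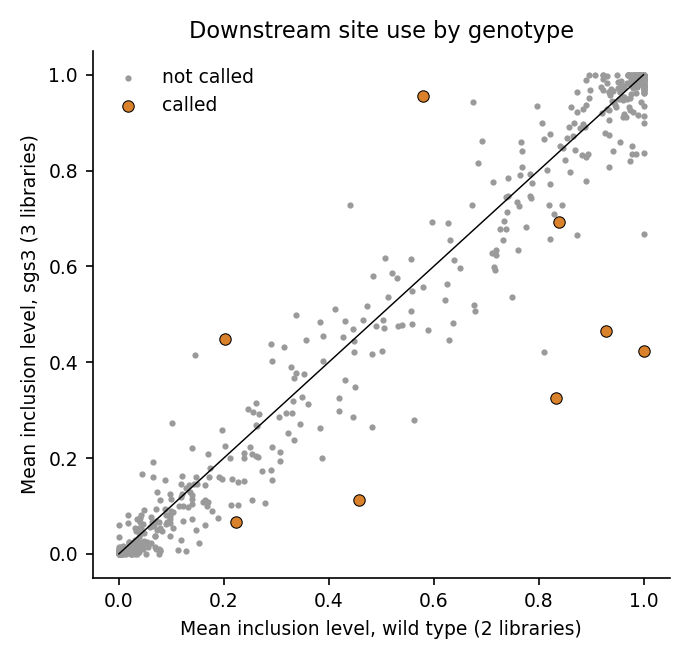
Mean inclusion level of the 532 tested events in the 2 wild-type libraries (horizontal axis) and the 3 sgs3 libraries (vertical axis). The line marks equal levels, grey points are events that were not called and the 8 called events are orange, 6 below and 2 above the line.

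The called events lie in 8 host genes, with sites 17 to 937 bases apart. In 3 the distance is a multiple of 3 and in 5 it is not. In 7 the groups do not overlap, but the calls rest on the same reads. In 3 the preferred site differs between the group means, which holds for 18 of all tested events. None of the 234 tested events with both forms annotated was called. Leaving out each of the 5 libraries in turn kept the calls in LOC_Os06g41990, LOC_Os02g19420 and LOC_Os11g34200 every time, while the other 5 lost theirs without at least 1 library.

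**Figure D4:**
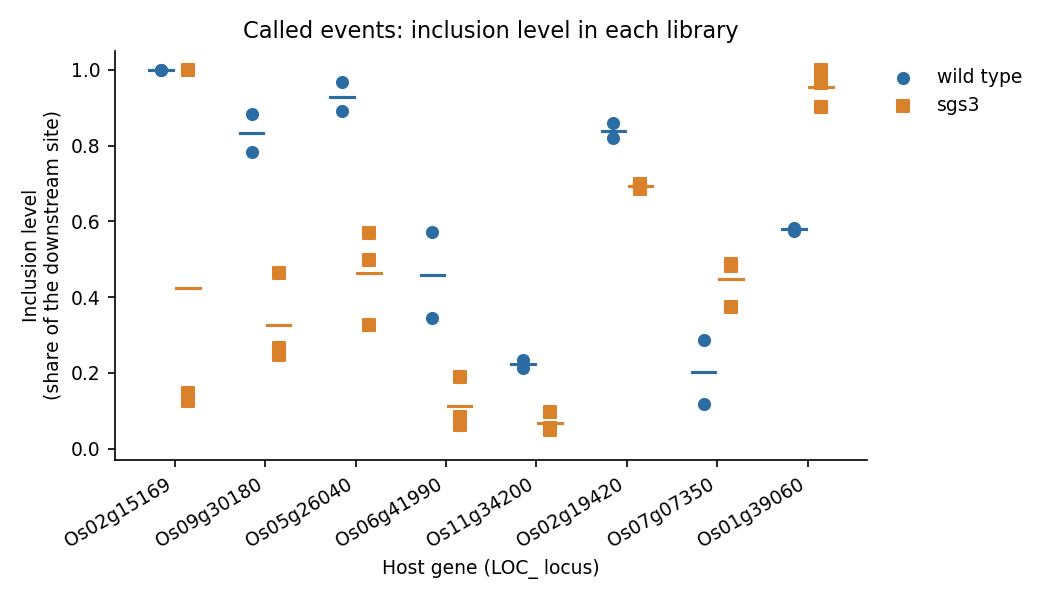
Inclusion level of the 8 called events in each library (vertical axis), by host gene (horizontal axis), ordered by the difference between sgs3 and wild type. Blue circles are the 2 wild-type libraries, orange squares the 3 sgs3 libraries and short lines the group means. Only in Os02g15169 does an sgs3 library lie at the wild-type level.

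LOC_Os06g41990, annotated as a probable zinc protease PqqL after a bacterial metalloprotease, had the smallest p. Its exon on chromosome 6, minus strand, ends at 25208524 (upstream site, in the locus transcript) or 155 bases on at 25208369 (known from the assembly). The downstream site had a level of 0.084, 0.063 and 0.189 in the sgs3 libraries and 0.344 and 0.572 in wild type. Every sgs3 library was below both wild-type libraries. The means were 0.112 ± 0.068 (SD, n = 3) and 0.458 ± 0.161 (SD, n = 2), a difference of -0.346 ± 0.121 (SE), with an adjusted p of 4.29e-04. The reads of the long form were 80, 47 and 125 against 108 and 123, and those of the short form 439, 351 and 268 against 103 and 46. Without the second wild-type library the difference was -0.232, with an adjusted p of 0.0431. The host gene was at 199 ± 24.98 TPM in sgs3 and 137 ± 17.0 TPM in wild type (SD, n = 3 each), a difference that did not pass the test (adjusted p of 0.224).

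LOC_Os02g19420 encodes a homolog of rcd1, first known in fission yeast for its role in cell differentiation and a part of the CCR4-NOT complex that removes poly(A) tails. Its sites lie 51 bases apart on chromosome 2, minus strand, at 11340633 and 11340582. The annotated downstream site was the main one in both genotypes, with a level of 0.686, 0.70 and 0.692 in sgs3 and 0.819 and 0.859 in wild type. The sgs3 libraries were close to each other, with an SD of 0.007 (n = 3), and all lay below wild type. The difference was -0.147 ± 0.020 (SE) over 3120 reads, with an adjusted p of 0.00127. The 51 bases are a multiple of 3. Host TPM was 52.1 ± 6.45 in sgs3 and 120 ± 23.0 in wild type (SD, n = 3 each), a log2 difference of -1.18 with an adjusted p of 0.0439. After scaling between libraries that difference was -0.10 with an adjusted p of 0.882.

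LOC_Os11g34200 encodes a homolog of the Dr1-associated corepressor, or NC2-alpha, which with its partner Dr1 binds the TATA-binding protein and holds back transcription. The sites lie 213 bases apart, a multiple of 3, on chromosome 11, plus strand, at 20026097 and 20026310. The assembled downstream site had a level of 0.051, 0.097 and 0.055 in sgs3 and 0.233 and 0.214 in wild type. The groups lay apart by more than either spread. The mean was 0.068 ± 0.025 (SD, n = 3) against 0.223 ± 0.014 (SD, n = 2), and the difference of -0.156 ± 0.018 (SE) had an adjusted p of 0.00231. In reads this is 11, 21 and 14 of the long form against 99 and 82. The annotated upstream form had 103, 98 and 120 reads against 163 and 151.

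OsSAP9 (LOC_Os07g07350), a stress-associated protein with A20 and AN1 zinc fingers from a family linked to stress responses in rice, went the other way. Its sites lie 937 bases apart on chromosome 7, minus strand, at 3678263 and 3677326, the widest gap among the called events. The assembled downstream site had a level of 0.488, 0.481 and 0.375 in sgs3 and 0.287 and 0.117 in wild type. All sgs3 libraries were higher, although the wild-type libraries differed by more among themselves than the sgs3 libraries did. The difference was 0.246 ± 0.092 (SE), with an adjusted p of 0.00336. Without the second wild-type library it was 0.161, with an adjusted p of 0.0510, so that the call was lost. The gene's TPM was 180 ± 39.8 in sgs3 and 125 ± 36.8 in wild type (SD, n = 3 each, adjusted p of 0.263).

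In LOC_Os09g30180, a locus with no description, the preferred site differed between the genotypes. The sites lie 765 bases apart, a multiple of 3, on chromosome 9, plus strand, at 18365843 and 18366608. The annotated downstream site had a level of 0.267, 0.247 and 0.465 in sgs3 and 0.783 and 0.884 in wild type. By level, mutant libraries thus mostly took the assembled upstream site and wild-type libraries mostly the downstream one. The third sgs3 library had 33 reads of the long form and 19 of the short, so its preference rests on the division by form length. The difference was -0.507 ± 0.086 (SE) on 282 reads, with an adjusted p of 0.00456. Leaving out the second wild-type library gave -0.457 with an adjusted p of 0.0800, which ended the call. Host TPM was low, at 7.29 ± 0.513 in sgs3 and 13.3 ± 3.58 in wild type (SD, n = 3 each).

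Pumilio homolog 4 (LOC_Os05g26040) belongs to a family of RNA-binding proteins that repress or destabilise their target messages. Its sites lie 17 bases apart, the shortest distance among the called events, on chromosome 5, plus strand, at 15142292 and 15142309. The downstream site, for which no transcript is listed, had a level of 0.569, 0.498 and 0.327 in sgs3 and 0.890 and 0.968 in wild type. The groups did not overlap. The difference was -0.464 ± 0.081 (SE) on 191 reads, with an adjusted p of 0.00484. The adjusted p was 0.0717 without the third sgs3 library (difference -0.395) and 0.273 without the second wild-type library (difference -0.426), and the call was lost in both. Retention of the same intron is listed in 2 events of its own. In the one for which values are given here the mean level was 0.388 in sgs3 and 0.731 in wild type. Retained-intron events over the same intron exist for 75 of the 532 tested events (14.1%), and among the called ones for this event alone. Reads of the unspliced intron that run past the upstream site can count as long form. How many of them enter the level here was not tested, so the call may not be one of site choice alone. Host TPM was 38.3 ± 6.77 in sgs3 and 19.8 ± 4.72 in wild type (SD, n = 3 each), with a log2 difference of 0.93 (adjusted p of 0.0635) and of 1.98 after scaling (adjusted p of 0.00687).

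LOC_Os01g39060, whose closest described protein is a putative B3 domain protein, a plant family of DNA-binding factors, has a group of 3 sites in 1 intron. They lie on chromosome 1, plus strand, at 21958510, 21958538 and 21958585, all joined to the exon at 21958696. Each pair of them is an event, so the 3 events share sites and are not independent. The called event compares the first with the annotated second site, 28 bases apart. The long form had a level of 1, 0.965 and 0.90 in sgs3 and 0.583 and 0.575 in wild type. It had 22, 33 and 32 reads against 33 and 48. Reads joined from the second site itself, the short form of the event with the last site, were 14, 16 and 20 against 2 and 17. The long-form reads therefore hold others too, which may run past the first site unspliced. The groups lay far apart, with a difference of 0.376 ± 0.029 (SE) and an adjusted p of 0.0243. The first site had 0, 1 and 3 reads in sgs3 against 20 and 30 in wild type, where it had more than the second site itself. The call was lost without any of the 5 libraries, where the adjusted p lay between 0.0509 and 0.133 and the difference between 0.354 and 0.404. The other 2 events are outside the rule for named events and were added after their values were seen. So was a further tested event of this locus, with sites 6 bases apart and 301 reads. Its mean level was 0.065 in sgs3 and 0.098 in wild type (adjusted p of 0.832). For the last site against the first the level was 1, 0.958 and 0.873 in sgs3 and 0.720 and 0.632 in wild type (adjusted p of 0.204). For the last against the second it was 0.396, 0.448 and 0.421 in sgs3 and 0.946 and 0.674 in wild type (adjusted p of 0.132). By level, the last site was higher relative to the first in every sgs3 library, and lower relative to the second in every sgs3 library. For the last against the second, the difference of -0.389 was -0.253 without the first wild-type library (adjusted p of 0.584). Without the second wild-type library it was -0.525, with an adjusted p of 0.0349 that would make a call. The gene itself was far lower in sgs3, at 1.65, 2.22 and 5.11 TPM against 39.5, 25.3 and 35.4 TPM. That log2 difference was -3.18 with an adjusted p of 0.00644, and -2.25 after scaling with an adjusted p of 0.00359.

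Glutelin type-B 1 (LOC_Os02g15169), another seed storage protein, gave the largest difference among the called events. The exon ends on chromosome 2, plus strand, at 8446788 or at 8446820, and the next exon starts at 8465065, 18244 bases further on. The level was 0.125, 0.148 and 1 in sgs3 and 1 and 1 in wild type. In this event the third sgs3 library therefore equalled wild type, and the groups overlap. The difference of -0.576 ± 0.288 (SE) had an adjusted p of 0.0360. Without the third sgs3 library it was -0.863, with an adjusted p of 1.82e-05. Without any of the other 4 libraries the call was lost, with an adjusted p between 0.0586 and 0.248. The short form had 162 and 62 reads in the first and second sgs3 libraries and 0 of 37, 0 of 31 and 0 of 31 in the other 3 libraries, which allows a share of up to 8.11%, 9.68% and 9.68%.

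The same exon has sites at 8446787 and 8446789 too, in events added after their values were seen. In the event that joins these, all 69 reads of the third sgs3 library ended at 8446787. In the other 4 libraries 0 reads ended there and 217, 63, 163 and 144 ended at 8446789. The third sgs3 library thus stood apart from the other 4 in the position it used. The event was not called (adjusted p of 0.547), and without the first sgs3 library its difference of -0.333 became -0.50, with an adjusted p of 0.0039 that would make a call. Between 8446789 and 8446820 the level was 0.097, 0.147 and 1 in sgs3 and 0.137 and 0.152 in wild type (adjusted p of 0.796). There the first and second sgs3 libraries were close to wild type and the third was not. Glutelins form a family of near-identical genes and the intron is far longer than the median of 220 bases over the tested events, but whether reads were shared between copies was not tested.

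The authors' deposited table, with an FDR from a test whose program is not named, lists more differences. It is the authors' deposited table that gives an FDR under 0.05 for 128 of 1349 events (9.49%) and for 798 of 12313 events of all kinds (6.48%). Of those 128 events, 82 are lower and 46 higher in sgs3 in the authors' deposited table. Under 20 reads in at least 1 library stand 66 of them, and 62 were tested here. Of the tested ones, 43 have groups that do not overlap, on the same reads that the authors' test used. All 8 events called here are among the 62, and the groups overlap in the glutelin type-B 1 event.

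Of the events that were not called, the 2 with the smallest p were lower in every sgs3 library. LOC_Os09g39350, with no description, had a level of 0.111, 0.093 and 0.10 in sgs3 and 0.185 and 0.244 in wild type, from sites 412 bases apart (difference -0.113 ± 0.030 SE, adjusted p of 0.0654). OsCIPK31 (LOC_Os03g20380), a kinase of the calcium-sensor CBL pathway, had 0.071, 0.130 and 0.117 in sgs3 and 0.242 and 0.315 in wild type. Its annotated sites lie 555 bases apart, and the difference of -0.173 ± 0.041 (SE) had an adjusted p of 0.102.

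Genes of the splicing machinery are described next. The quasi-binomial model called none of their events, and an unadjusted p under 0.05 was found for 1, in the list of other spliceosome genes. Limma on the log2 ratio called none either. In the list of factors that act at the 5' splice site, 3 of 8 events were tested. U1-70K (LOC_Os10g02630), a core protein of the U1 snRNP, used sites 1469 bases apart at a level of 0.533, 0.684 and 0.508 in sgs3 and 0.642 and 0.420 in wild type. The groups overlap widely (adjusted p of 0.783). RBP45 (LOC_Os04g53440), a poly(A)-binding protein, had 4 reads of the short form in the third sgs3 library and 0 in the other 4 libraries, of 1487 reads in all, which allows a short-form share of up to 1.59% in the thinnest of the 4. Its assembled downstream site thus took nearly all reads, 1690 bases from the annotated one.

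Of 6 events in SR proteins and their kinases 5 were tested. SR proteins bind exons and help to recruit the U1 snRNP, and many plant SR genes are themselves alternatively spliced. SR30 (LOC_Os07g47630) used sites 11 bases apart at a level of 0.354, 0.424 and 0.427 in sgs3 and 0.381 and 0.396 in wild type. SCL30 (LOC_Os02g15310) used annotated sites 801 bases apart at 0.077, 0.192 and 0.043 in sgs3 and 0.149 and 0.130 in wild type. In both the wild-type values lie inside the sgs3 range. RS2Z33 (LOC_Os01g06290), added after its values were seen, had 0.196, 0.202 and 0.239 in sgs3 and 0.315 and 0.298 in wild type from sites 10 bases apart. Here the groups did not overlap, with a difference of -0.094 ± 0.016 (SE) and an adjusted p of 0.783.

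The other spliceosome list holds 22 events, of which 11 were tested, with a smallest adjusted p of 0.352. That p belongs to a homolog of the survival of motor neuron-related splicing factor 30 (LOC_Os08g01840), named after its values were seen. Its level was 0.217, 0.094 and 0.169 in sgs3 and 0.081 and 0.048 in wild type. The 5' splice site list had a median difference of -0.010, and the SR and the other spliceosome lists each had one of 0.010, beside -0.0064 over all tested events. In TPM, tested with limma, 10 of 37 genes of the 5' splice site list fell (27.0%) and none rose, and of 35 genes of the SR list 10 fell (28.6%) and 1 rose. Over all tested genes 26.3% fell, so these shares were near the background. An unadjusted p under 0.05 was found for 23 genes of the first list (62.2%) and 25 of the second (71.4%), beside 51.5% of all tested genes. After scaling between libraries none in either list was called, and an unadjusted p under 0.05 was left for 9 (24.3%) and 10 (28.6%) of them, beside 32.9% of all tested genes. The median log2 difference before scaling was -1.01 for the first list and -1.23 for the second, beside -0.86 over all tested genes.

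The small RNA pathway list, to which SGS3 belongs, has 4 events, and none had 20 reads in every library. The grain storage and starch list has 20 events, of which 11 were tested and 1, the glutelin type-B 1 event above, was called, beside 1.5% of all tested events. An unadjusted p under 0.05 was found for 6 of the 11 (54.5%), beside 63 of all 532 tested events (11.8%). Those 6 include 2 events of the same glutelin type-B 1 exon, which are not independent. The rest had small differences, in glutelin type-A 1 (-0.0001), the branching enzyme (-0.009), granule-bound starch synthase 1 (0.019) and starch synthase 4 (0.066). In glutelin type-A 1 and granule-bound starch synthase 1 the short form was read in 1 library only. Its tested events had a median level of 0.80, 7 lower and 4 higher in sgs3. Among them, and added after values were seen, are enzymes of starch synthesis. Granule-bound starch synthase 1 (LOC_Os06g04200), which makes amylose, has annotated sites 3 bases apart. The upstream one was read 13 times among 344 reads in the first wild-type library and 0 times in the other 4 libraries, which allows a share of up to 1.51% in the thinnest, and the difference had an adjusted p of 0.443. Sucrose synthase 4 (LOC_Os03g22120), which splits sucrose to feed starch synthesis, took its assembled downstream site in all but 9 of 6536 reads. The locus annotated as starch synthase 4 (LOC_Os05g45720) had a level of 1, 0.989 and 1 in sgs3 and 0.883 and 0.977 in wild type (adjusted p of 0.475).

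The list of transcription factors, a match on annotation text, holds 33 events, of which 13 were tested. The quasi-binomial model called none of these, with a smallest adjusted p of 0.596 and 1 unadjusted p under 0.05, and limma on the log2 ratio called none. The called events in the B3 domain locus LOC_Os01g39060 and in the NC2-alpha homolog LOC_Os11g34200 are not in this list, since their annotation text does not match it. The alpha subunit of the general factor TFIIF (LOC_Os10g10990) used sites 9 bases apart at 0.818, 0.736 and 0.765 in sgs3 and 0.822 and 0.753 in wild type. NAC78 (LOC_Os05g35170), named after a NAC domain protein of Arabidopsis, used annotated sites 129 bases apart at 0.943, 0.802 and 0.926 in sgs3 and 0.892 and 0.885 in wild type. In both the groups overlap.

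Most host genes did not pass the test on their level, and those that did were mostly lower in sgs3. Of 466 hosts with a TPM test, limma on log2(TPM + 1) called 5 as risen (1.07%) and 95 as fallen (20.4%) in sgs3. Over all 16352 tested genes 1.55% rose and 26.3% fell. TPM values are shares of a library, and the median log2 difference over all genes, -0.86, became -0.01 after median-of-ratios scaling. Then 5 hosts rose and 2 fell, against 1.6% and 1.03% of all tested genes. Without wild type replicate 1 the count of 100 host calls was 3, without wild type replicate 2 it was 179, and without wild type replicate 3, sgs3 replicate 1 or sgs3 replicate 2 it was 1. Only 3 hosts were called in the same direction both ways. One is the B3 domain locus LOC_Os01g39060 described above, which fell. The F-box gene LOC_Os08g36570, whose family selects proteins for degradation, was at 50.4, 26.0 and 38.7 TPM in wild type and 5.25, 5.66 and 11.4 TPM in sgs3, and fell by 2.25 on the log2 scale. LOC_Os10g26730, described as NEN1 after an Arabidopsis exonuclease of phloem cells, was at 3.38, 8.38 and 5.26 TPM in wild type and 26.1, 44.9 and 16.4 TPM in sgs3, a rise of 2.13. The events of these last 2 genes were not called. Of the 8 genes with a called event, 2 changed in TPM before scaling, LOC_Os01g39060 and the rcd1 homolog. After scaling it was LOC_Os01g39060 and Pumilio homolog 4.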

How the data were processed

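Grain RNA of 6 libraries was prepared with a SMARTer mRNA kit, per the labels. The submitters' processing notes list Bowtie2, HISAT2 2.1.0, RSEM, StringTie and DESeq2 1.12.4 without roles. For the genome build and the splicing program no name is given in the sources used here. Coordinates are those of the deposited table, counted from 1 and given as the last base of the exon.

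The authors deposited gene levels as TPM, with no depth. Inclusion levels were deposited as a fraction, between 0 and 1, for each library and for each group, and were recomputed here from the deposited junction reads to within 0.0005. The authors' p-value and FDR come from their own test on junction reads, per the file headers. Read columns carry exchanged group headings, so groups follow the inclusion headings. Among 494 events in genes with TPM at least 2-fold apart, 482 (97.6%) had reads under the wild-type heading that went with the mutant's TPM. The deposited form lengths differ by 1 base less than the coordinates in all 1032 events with sites at most 149 bases apart, and by at most 149 beyond. Distance and frame were therefore taken from coordinates, which changes the frame class of 801 events.

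The test, for events with 20 or more junction reads per library, was a quasi-binomial logistic model of long-form and short-form reads on genotype. The dispersion was moderated with limma 3.58.1 in R 4.3.3, with a prior of 2.20 on 19.1 degrees of freedom that was estimated from events with both groups off 0 and 1. Events with a larger dispersion of their own were pulled toward this prior, so their p-values lean on the spread of other events. Own dispersions were 25.8 in LOC_Os06g41990, 19.7 in OsSAP9, 60.6 in the called glutelin type-B 1 event and 547 in the nearer-exon event of LOC_Os12g16900. Where a group was at 0 or 1 in all its libraries, its residual degrees of freedom were not counted. P-values were adjusted by Benjamini-Hochberg over 5471 tested events of all 5 kinds. By counting error alone, 10 of 20 reads leave a 95% Wilson interval of 29.9% to 70.1% for the read share, and 200 of 400 one of 45.1% to 54.9%. Levels of genes were tested with limma's trend on log2(TPM + 1), for genes with at least 1 TPM in at least 3 libraries, with 4 residual degrees of freedom. Each test was run on simulated data with known differences, with the same spread for all genes and a dispersion of 2.2 for all events. The simulation therefore does not cover events with a far larger dispersion. Python 3.11.15 with numpy 2.4.6, pandas 2.3.3 and matplotlib 3.10.9 made tables and figures.

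The named events were the largest called rises and falls (up to 8 each), the 6 most-read, per list every called event or else the 2 most-read, the 3 most-read with sites 4 bases apart and the 2 uncalled with the smallest p. Members, lists and rule were chosen with earlier results of these data known. Lists are patterns on the deposited annotation text. Sequences at the sites were not analysed here.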

Additional observations from a re-analysis of the deposited data

How the results depend on the processing

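Of 532 events 8 were called. The count was 4 with at least 50 reads per library, 0 with limma on the log2 ratio of reads (smallest adjusted p of 0.125), 5 with all residual degrees of freedom counted (chosen after seeing the data) and 4 to 9 with each library left out. It was 12 with at least 10 reads, 10 with a dispersion trend (chosen after seeing the data) and 9 with p adjusted over these events alone. The median level was 0.480 in sgs3 and 0.510 in wild type. With at least 10 reads these were 0.507 and 0.559, with at least 50 reads 0.494 and 0.544, and with reads not divided by form length 0.541 and 0.581. Leaving out libraries gave 0.479 to 0.498 and 0.505 to 0.533. Over these alternatives the adjusted p ran from 2.21e-06 to 0.329 in LOC_Os06g41990, 1.82e-04 to 0.532 in LOC_Os02g19420 and 4.60e-04 to 0.349 in LOC_Os11g34200. Leaving out 1 library gained a call in 3 named events (-0.236 in LOC_Os12g16900, -0.525 in LOC_Os01g39060 and -0.50 in glutelin type-B 1). Signs of uncalled differences changed with 1 library left out. The difference ran from -0.0487 to 0.0204 in TFIIF alpha, -0.0666 to 0.155 in U1-70K, -0.0243 to 0.0465 in NAC78, -0.0030 to 0.0223 in E2 28, -0.00025 to 0.00094 in enolase, -0.0071 to 0.0036 in LOC_Os12g16900, -0.00036 to 0.00036 in LOC_Os03g22460, -0.00093 to 0.0259 in sucrose synthase 4 and -0.0225 to 0.429 between the glutelin type-B 1 sites 31 bases apart. The 100 hosts called on TPM were 7 after scaling, 88 with a pseudocount of 0.1, 1 with no filter on low values, and 1 to 179 with a library left out (3 without wild type replicate 1, 179 without wild type replicate 2, 1 without wild type replicate 3, sgs3 replicate 1 or sgs3 replicate 2). For splicing no paired analysis was possible because the libraries in a cell carry no replicate number. With a replicate block on TPM 1 host was called, and same-numbered libraries had deviations correlated at -0.53, 0.21 and -0.09. For unlike numbers the correlations ran from -0.56 to 0.54, so these values neither show nor exclude that the numbers pair libraries. Depth limits events at 20 reads, where an interval for the read share spans 29.9% to 70.1%. That interval covers counting error only, not the spread between libraries or the division by form length.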
